A study of Homo sapiens with 8 samples.

Results

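The subunits of the oxidative phosphorylation complexes were followed through an AGO2 RIP-chip experiment in A431 cells, a human cutaneous squamous cell carcinoma line with high EGFR. Members were the genes whose current or former symbol begins with NDUFA, NDUFB, NDUFC, NDUFS or NDUFV and a digit, with UQCR, with ATP5 or with COX and a digit from 4 to 8, together with SDHA, SDHB, SDHC and SDHD; pseudogenes were left out. By RefSeq gene symbols, 101 genes fit this rule. Of these, 88 encode a subunit or a protein bound to one of the complexes, and 13 fit by their letters only. A probe well above background on all 8 arrays was found for 81 of the 88, out of 10956 genes measured in this way, and the brightest such probe stood for the gene. They comprised 36 of 36 genes of complex I, 4 of 4 of complex II, 9 of 10 of complex III, 13 of 19 of complex IV and 19 of 19 of complex V. CYC1, the cytochrome c1 of complex III, entered through its former symbol UQCR4. COX4I2, COX6A2, COX7B2, COX8C and COXFA4L2, forms of complex IV subunits restricted to certain tissues, had a probe that was not well above background on every array, and COX7A1 and UQCRHL had no matched probe.

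The cells had received miR-634 or a negative control miRNA (miR-NC) by transfection, at 10 nM, and lysates were taken 24 h afterwards. Agilent 8 × 60K arrays, with Cy3 as the only label, measured the RNA that AGO2 antibody beads recovered (RIP) or the total RNA (input). Each kind of cell had 2 RIP and 2 input arrays, 4 groups in all. All 8 arrays lay on 1 slide, with the 4 input arrays in one row and the RIP arrays in the other, so that slide row and RNA source cannot be told apart in RIP/input. The sample labels name normal rabbit IgG as the antibody of the input arrays, whereas the methods describe them as total RNA; they are treated here as input. A single cell line was used, and the duplicates are not stated to come from separate transfections, so that p-values measure the spread between these arrays, which may be technical. Of 10 markers of A431 cells, 10 were well above background on the 4 input arrays, among them EGFR, KRT5 and TP63. The same held for 0 of 4 fibroblast markers, 0 of 4 leukocyte markers and 2 of 3 endothelial markers. LYZ, of the leukocyte list, had no probe. VWF and CDH5 were the endothelial markers above background, at input levels of -5.78 and -4.98 on the log2 scale used here, while PECAM1 was above background on none of the input arrays.

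In the inner mitochondrial membrane, complex I takes electrons from NADH and complex II takes them from succinate, and both pass them to ubiquinone. Complex III hands them on to cytochrome c and complex IV to oxygen; complexes I, III and IV pump protons, and complex V, the ATP synthase, lets the protons return through its rotor and makes ATP. Most subunits are encoded in the nucleus, translated in the cytosol and imported, whereas a core of complexes I, III, IV and V is encoded in mitochondrial DNA. AGO2 is the Argonaute protein that carries a miRNA to mRNAs paired with its seed, so that the recovery of an mRNA with AGO2 relative to its level in the input reads its association with the loaded complex.

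The transfected miRNA is shown because all comparisons turn on it, with the seed (bases 2 to 8) in capitals, from RefSeq (GRCh38.p14, chr17:66787132-66787153, + strand), where it lies within the span of the gene PRKCA.
hsa-miR-634: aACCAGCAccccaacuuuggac
An mRNA paired with all bases of the seed would carry the letters UGCUGGU. No transcript sequence was searched for these letters, and which of the subunit mRNAs hold them was not analysed here.

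Levels are given as log2 of the processed spot signal minus the 75th percentile of the same array over the probes well above background on all 8 arrays, so that 0 is that percentile; levels of different genes come from different probes and are not compared. RIP/input is the mean level on the RIP arrays minus that on the input arrays, and the change of enrichment is RIP/input in miR-634 cells minus RIP/input in miR-NC cells, all on the log2 scale. Genes were called higher or lower at an adjusted p under 0.05 in limma across all 10956 genes. The RIP arrays were dimmer than the input arrays. The share of probes well above background was 30.9% and 31.8% for the RIP of miR-NC cells and 37.5% for both RIP arrays of miR-634 cells, against 43.3% to 43.6% on the input arrays. Directions depend on the scaling. When the arrays were scaled on the E1A spike-in probes in place of the 75th percentile, the median change of enrichment over all genes moved from -0.22 to 0.87, that of RIP/input in miR-NC cells from -0.12 to -2.66 and that of RIP/input in miR-634 cells from -0.17 to -1.62. For the change in the input the median moved to -0.22 and for the change in the RIP from -0.18 to 0.68. With the 75th percentile taken over all probes it was -0.10 for the change of enrichment, -0.064 for RIP/input in miR-634 cells and -0.0061 for the change in the RIP. Levels of single genes, the order of their groups and fold values are given with the 75th percentile unless stated. Rises and falls below are thus relative to the other genes of the same arrays, and the median over the subunits is set beside the median of all genes.

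In miR-NC cells the subunits were spread on both sides of the input. RIP/input was called higher for 24 of 81 subunits (29.6%, against 33.6% of all genes) and lower for 41 (50.6%, against 45.3% of all genes), shares near those of all genes. Under spike-in scaling limma called 0 higher, as did an unadjusted p under 0.05, and 79 lower; over all genes it called 63 higher and 10743 lower. The median was -0.15 over the subunits and -0.12 over all genes. The top values were those of ATP5MJ, a small membrane protein of the ATP synthase, at 2.51 ± 0.0854 (SE, limma adjusted p = 1.52e-06), NDUFB2, an accessory subunit of complex I, at 2.44 and COX6B2, the testis form of a complex IV subunit, at 2.10. A second, far dimmer probe of COX6B2 gave 0.57, with a mean level of -4.90 against 2.96 for the brightest. Whether both probes read the same transcript was not tested. Under spike-in scaling ATP5MJ, NDUFB2, COX6B2 and the other subunits were all below 0. The lowest were NDUFB11 at -1.68 and COX7A2 at -1.55, with ATP5PB, the b subunit of the peripheral stalk, at -1.35 ± 0.314 (SE, limma adjusted p = 0.00663). The miR-NC RIP arrays of ATP5PB read 2.10 and 1.07, so that this value rested on arrays that differed widely, and the methods' t-test did not call it (unadjusted p = 0.120).

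In miR-634 cells, RIP/input was called higher for 27 subunits (33.3%, against 36.1% of all genes) and lower for 45 (55.6%, against 48.3% of all genes), with 8 higher and 67 lower under spike-in scaling (712 and 9195 of all genes). The median was -0.26, against -0.17 over all genes. At the top was ATP5F1B, the catalytic beta subunit of the ATP synthase, at 3.43 ± 0.0428 (SE, limma adjusted p = 6.53e-08), followed by ATP5MC3, a subunit c gene, at 2.99 and ATP5MGL, a second gene for the g subunit, at 2.89. The lowest were NDUFB11 at -2.45, UQCRQ at -2.03 and ATP5PF, the F6 subunit of the peripheral stalk, at -1.87. Both kinds of cells were called on opposite sides of the input for 9 subunits that were below it in miR-NC cells and above it in miR-634 cells, and for 6 that went the other way (7 and 0 by limma under spike-in scaling, where every subunit was below the input in miR-NC cells); the shares of all genes were 8.45% and 6.10%, those of the subunits 11.1% and 7.41%.

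**Figure D1:**
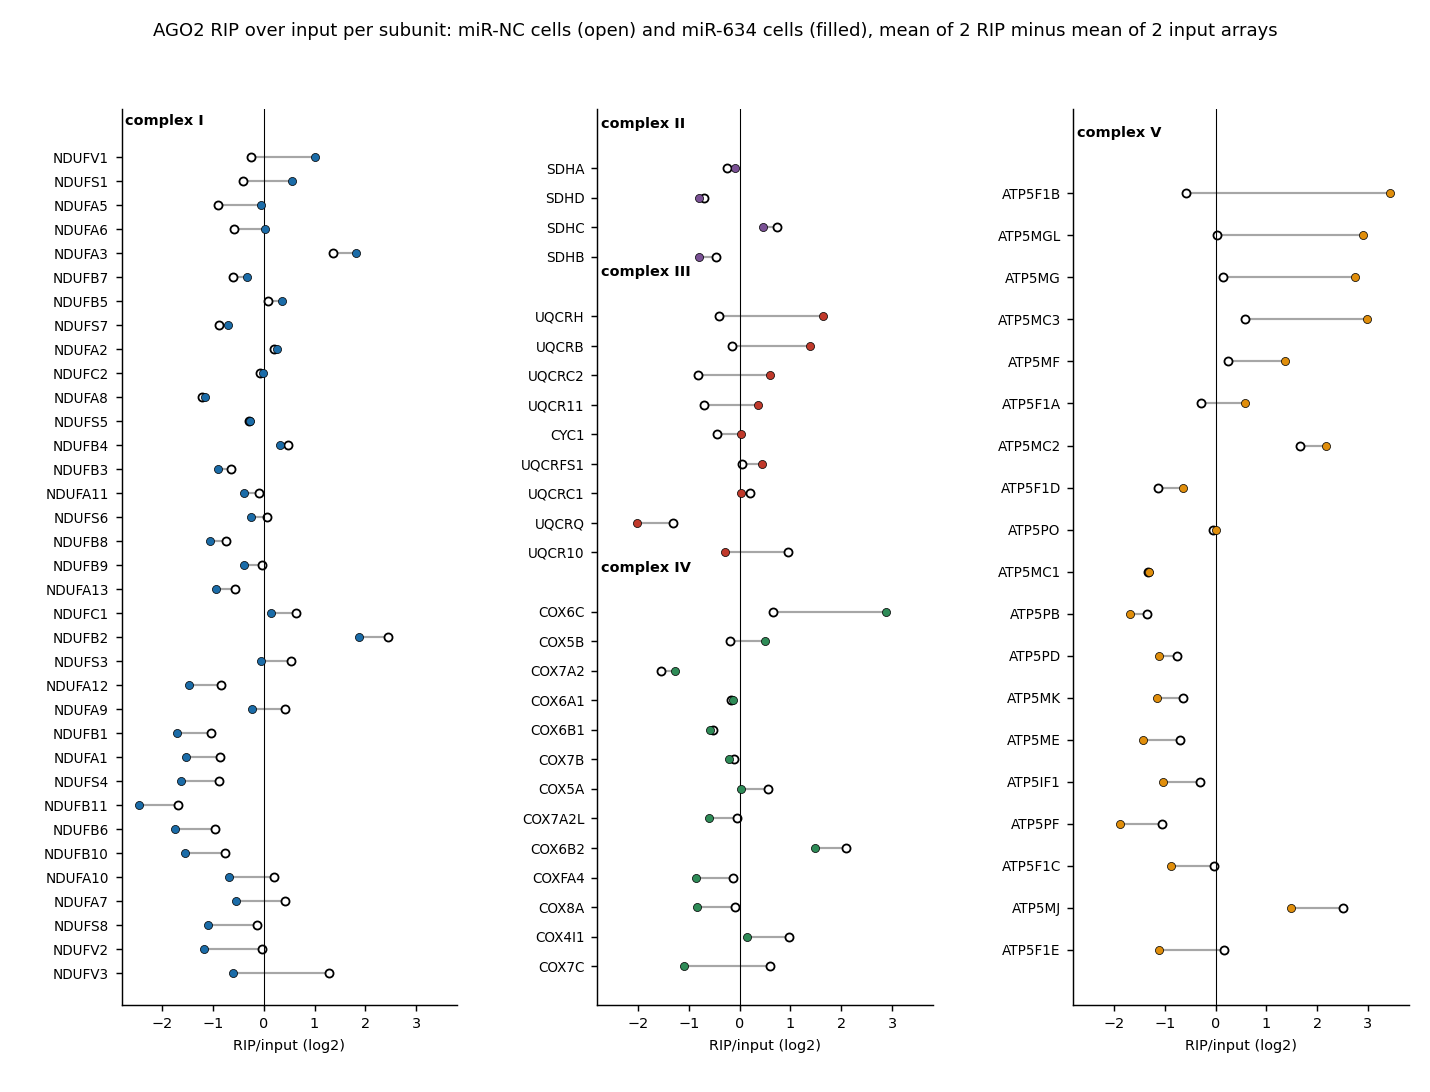
RIP/input (log2) of 80 of the 81 subunits by complex, in miR-NC cells (open circles) and miR-634 cells (filled circles), each the mean of 2 RIP arrays minus the mean of 2 input arrays; the grey line joins both values of a gene. ATP5F1B moved from -0.58 to 3.43, NDUFV3 from 1.29 to -0.61, and under spike-in scaling all values shift down.

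Over all complexes, the change of enrichment was called higher for 25 of 81 subunits (30.9%, against 28.1% of all genes) and lower for 40 (49.4%, against 43.3% of all genes). Under spike-in scaling these counts were 50 and 2, and over all genes 7345 and 193 in place of 3077 and 4743. The median was -0.26, close to the -0.22 of all genes, and 39 subunits lay above the median gene and 42 below it. Called changes over 2-fold were found upward in 12 subunits (14.8%, against 13.2% of all genes) and downward in 6 (7.41%, against 8.32% of all genes). These shares are near those of all genes and are not a result about the subunits as a list; the members are therefore described one by one and by complex. For scale, APIP, BIRC5, TFAM and XIAP, 4 of the known targets of miR-634, had changes of enrichment of 3.16, 1.74, 1.58 and 0.45.

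**Figure D2:**
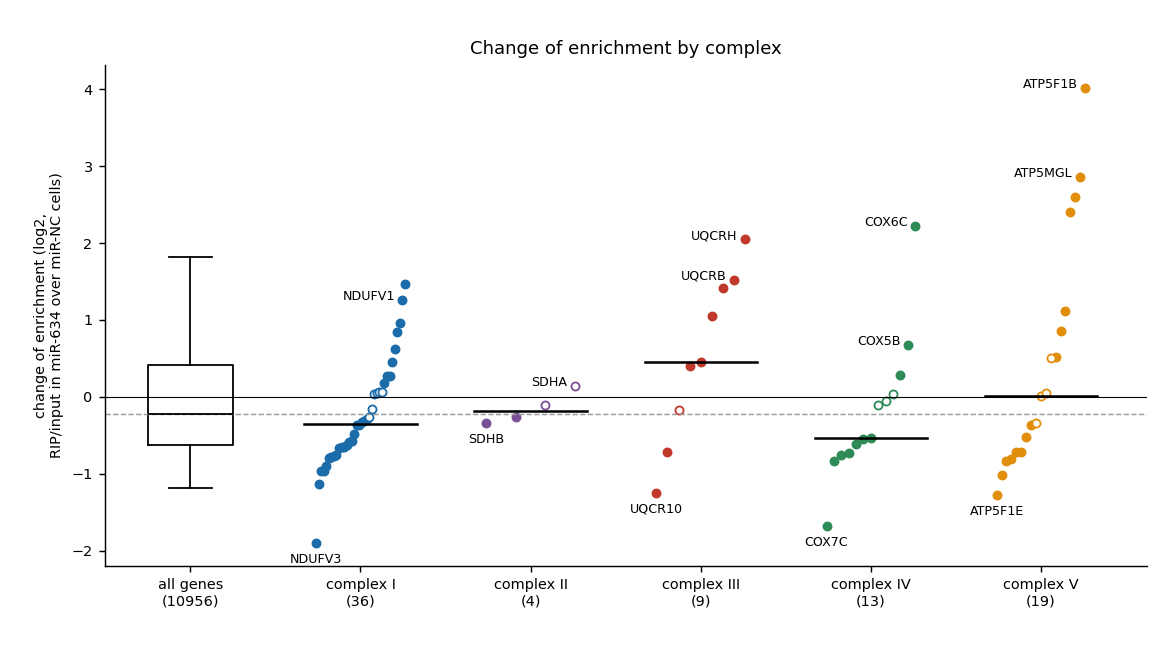
Change of enrichment (log2) of each subunit by complex (filled: limma adjusted p under 0.05; open: not called; bar: median), beside all 10956 genes (box: quartiles and median; whiskers: 5th and 95th percentiles; dashed line: median of all genes, -0.22). Complex III had the highest median, 0.45, and complex IV the lowest, -0.54; under spike-in scaling nearly all points move above 0.

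Complex I had 9 of 36 subunits called higher and 21 called lower in the change of enrichment, with a median of -0.35, and under spike-in scaling 21 were called higher. Its median RIP/input was -0.20 with miR-NC and -0.39 with miR-634, and its median input change -0.13. The core subunits, which carry the flavin and the iron-sulfur clusters, split. Of these 7, 4 were called higher (57.1%, against 28.1% of all genes) and 3 lower (42.9%, against 43.3%). NDUFV1, which binds NADH and the flavin, read 3.13 and 3.07 in the input and 2.89 and 2.80 in the RIP of miR-NC cells, and 3.06 and 3.12 in the input and 4.07 and 4.12 in the RIP of miR-634 cells. It was lower in the RIP than in the input of miR-NC cells and higher in miR-634 cells, where spike-in scaling placed it below the input at -0.44, with a change of 1.26 ± 0.0773 (SE, limma adjusted p = 2.08e-05). NDUFS1, the largest subunit of the electron-input module, changed by 0.96, and NDUFS7, which holds the last iron-sulfur cluster before ubiquinone, by 0.18 ± 0.0640 (SE, limma adjusted p = 0.0399). The call of NDUFS7 was lost without either miR-NC input array, either miR-NC RIP array, the miR-634 input array of replicate 1 or the miR-634 RIP array of replicate 1 (limma, adjusted p from 0.0685 to 0.121). It was also lost with quantile normalization with and without normexp, with a probe filter on the input arrays only, without a probe filter and with replicate as a block (limma, adjusted p from 0.0547 to 0.209), and by the methods' t-test (unadjusted p = 0.0743).

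Other core subunits were called lower, relative to the 75th percentile of the array. NDUFV2, the partner of NDUFV1 in the same module, read 2.84 and 2.85 in the input and 2.81 and 2.80 in the RIP of miR-NC cells, and 2.71 and 2.74 in the input and 1.56 and 1.55 in the RIP of miR-634 cells. Its miR-634 RIP arrays lay below all others, and the change was -1.13 ± 0.0580 (SE, limma adjusted p = 9.81e-06). NDUFS8 and NDUFS3, in the arm that leads electrons to ubiquinone, had changes of -0.96 and -0.59. NDUFV1 and NDUFV2 lie side by side in the complex and had changes of opposite sign with this scaling. Under spike-in scaling NDUFS8 and NDUFS3 were above 0 and NDUFV2 was at -0.045 and not called. Input changes of the core subunits ran from -0.13 to 0.064, with NDUFS7 the lowest and NDUFS3 the highest. The accessory subunits, which surround the core, were called higher in 5 and lower in 18 of 29 cases. These shares were 17.2% and 62.1%, against 28.1% and 43.3% of all genes. The median of the accessory subunits was -0.36 here, and most of them were above 0 under spike-in scaling. The largest fall was that of NDUFV3, a small subunit next to NDUFV1 and NDUFV2, which read -0.14 and -0.16 in the input and 1.103 and 1.18 in the RIP of miR-NC cells, and -0.018 and 0.021 in the input and -0.59 and -0.62 in the RIP of miR-634 cells. The miR-NC RIP arrays were the highest and the miR-634 RIP arrays the lowest, and the 4 groups did not overlap. The change of enrichment was -1.90 ± 0.0670 (SE, limma adjusted p = 2.32e-06), and it stayed below 0 under spike-in scaling.

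Complex II, succinate dehydrogenase, had the narrowest range among the complexes. Its change of enrichment ranged from -0.34 for SDHB to 0.14 for SDHA, with a median of -0.18. Of 4 subunits 2 were called lower (50%, against 43.3% of all genes) and 0 higher (28.1% of all genes were). Spike-in scaling gave 4 called higher, with 7345 of 10956 over all genes. SDHA, the flavoprotein that oxidizes succinate, read 1.81 and 1.86 in the input and 1.58 and 1.61 in the RIP of miR-NC cells, and 1.90 and 1.88 in the input and 1.81 and 1.77 in the RIP of miR-634 cells. The input groups of both kinds of cells did not overlap the miR-NC RIP arrays, which were the lowest, and the change was 0.14 ± 0.0628 (SE, limma adjusted p = 0.0801). SDHA was called higher by limma with arrays scaled on the median in place of the 75th percentile (adjusted p = 0.0342), with an intensity trend (adjusted p = 0.0366) and with spike-in scaling, and by the methods' t-test (unadjusted p = 0.0107). SDHB, the iron-sulfur subunit, had -0.34 ± 0.0695 (SE, limma adjusted p = 0.00476), and SDHC, a membrane anchor, -0.26 ± 0.0766 (SE, limma adjusted p = 0.0209); neither was called when the 75th percentile was taken over all probes, and both were above 0 under spike-in scaling. The call of SDHC was also lost without the miR-NC input array of replicate 1, the miR-NC RIP array of replicate 2, the miR-634 input array of replicate 1 or the miR-634 RIP array of replicate 2 (limma, adjusted p from 0.0510 to 0.0772) and without a probe filter (limma, adjusted p = 0.0576). SDHD, the other anchor, was at -0.10 ± 0.129 (SE, limma adjusted p = 0.504), and at 0.0054 without the miR-634 RIP array of replicate 2. RIP/input of SDHC was above 0 in both kinds of cells by its brightest probe, 0.73 with miR-NC and 0.47 with miR-634, and a second probe gave 1.02 and 0.80, but the third and dimmest gave -0.14 and -0.76. Under spike-in scaling the brightest probe was below the input in both kinds of cells, at -1.81 and -0.98. The input changes of SDHA, SDHB, SDHC and SDHD were 0.052, -0.13, -0.12 and -0.21, with adjusted p from limma between 0.113 and 0.444.

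Complex III, the cytochrome bc1 complex, had 6 of 9 subunits called higher (66.7%, against 28.1% of all genes) and 2 lower (22.2%, against 43.3%). Under spike-in scaling the complex had 7 subunits called higher, with 7345 of 10956 over all genes. Its median RIP/input was -0.42 with miR-NC and 0.36 with miR-634, and the median change of enrichment was 0.45. UQCRH, the hinge protein that contacts cytochrome c1, read 5.40 and 5.45 in the input and 4.99 and 5.03 in the RIP of miR-NC cells, and 4.85 and 4.91 in the input and 6.53 and 6.50 in the RIP of miR-634 cells. The miR-634 RIP arrays lay above all others, while the miR-634 input arrays lay below the miR-NC input arrays. The change of enrichment was 2.05 ± 0.0659 (SE, limma adjusted p = 1.64e-06), a 4.14-fold rise (3.13 in log2 under spike-in scaling), and the input fell by 0.55 on the log2 scale (limma, adjusted p = 9.83e-04), the largest fall among the subunits. UQCRB, at the ubiquinone side of the complex, rose by 1.53 and UQCRC2, a core protein, by 1.42; both were named after their values were seen. CYC1, the cytochrome that passes electrons to cytochrome c, rose by 0.45 ± 0.0600 (SE, limma adjusted p = 6.21e-04), and UQCRFS1, the Rieske iron-sulfur protein, by 0.40, the latter also named after its value was seen. UQCR10, a small subunit beside cytochrome c1, went the other way. It read 3.39 and 3.37 in the input and 4.42 and 4.27 in the RIP of miR-NC cells, and 3.20 and 3.27 in the input and 2.97 and 2.92 in the RIP of miR-634 cells. The miR-NC RIP arrays were the highest and the miR-634 RIP arrays the lowest, and the change was -1.25 ± 0.0886 (SE, limma adjusted p = 3.87e-05); under spike-in scaling it was -0.17 and not called. UQCRQ, a small subunit, was at -0.72, and above 0 under spike-in scaling. In the input 4 of 9 subunits were called lower (44.4%, against 12.1% of all genes): UQCRH, UQCRB, CYC1 and UQCRQ. Under spike-in scaling UQCRH was still called, but UQCRB, CYC1 and UQCRQ were not (limma, adjusted p = 0.0957, 0.224 and 0.236).

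Complex IV, cytochrome c oxidase, had 3 of 13 nuclear-encoded members called higher (23.1%, against 28.1% of all genes) and 7 lower (53.8%, against 43.3%). With spike-in scaling 6 were called higher, and 7345 of 10956 over all genes. The median change was -0.54, and the median RIP/input was -0.083 with miR-NC and -0.21 with miR-634. COX6C, one of the small membrane subunits, stood apart from the rest. It read 4.13 and 4.21 in the input and 4.83 and 4.80 in the RIP of miR-NC cells, and 4.16 and 4.12 in the input and 7.06 and 6.97 in the RIP of miR-634 cells. The miR-634 RIP arrays lay above all others and the input arrays of both kinds of cells overlapped. The change was 2.23 ± 0.0777 (SE, limma adjusted p = 2.24e-06), a 4.68-fold rise (3.31 in log2 under spike-in scaling), with an input change of -0.026 ± 0.0549 (SE, limma adjusted p = 0.773). COX5B, which binds zinc on the matrix side, rose by 0.68, and COX7A2, one of the forms of a small membrane subunit, by 0.29, which the methods' t-test did not call (unadjusted p = 0.0639). COX7C, another small membrane subunit, read 4.79 and 4.86 in the input and 5.44 and 5.39 in the RIP of miR-NC cells, and 4.76 and 4.82 in the input and 3.72 and 3.69 in the RIP of miR-634 cells. Its RIP level was the highest in miR-NC cells and the lowest in miR-634 cells, and the change was -1.68 ± 0.0702 (SE, limma adjusted p = 4.25e-06); it stayed below 0 under spike-in scaling. COX4I1, a regulatory subunit, was at -0.83 ± 0.0719 (SE, limma adjusted p = 9.34e-05), and above 0 under that scaling. In the input 13 of 13 members were below 0 (50.9% of all genes were) and 1 was called lower (7.69%, against 12.1% of all genes). This was COX5B at -0.27, which was not called under spike-in scaling (limma, adjusted p = 0.0982).

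Complex V held the largest rises. Of 19 members 7 were called higher (36.8%, against 28.1% of all genes) and 8 lower (42.1%, against 43.3%). With spike-in scaling 12 were called higher, and 7345 of 10956 over all genes. The median change was 0.018. The median RIP/input was -0.28 with miR-NC and -0.64 with miR-634. ATP5F1B, the beta subunit on which ATP is made, read 2.78 and 2.79 in the input and 2.18 and 2.21 in the RIP of miR-NC cells, and 2.27 and 2.26 in the input and 5.68 and 5.72 in the RIP of miR-634 cells. The miR-634 RIP arrays lay above all others, whereas the miR-634 input arrays lay below the miR-NC input arrays. Its change of enrichment was 4.02 ± 0.0605 (SE, limma adjusted p = 5.34e-07), a 16.2-fold rise and the largest among the 81 subunits (5.10 in log2 and again the largest under spike-in scaling), and its input fell by 0.52 on the log2 scale (limma, adjusted p = 9.25e-04). The other subunits of the F1 head had smaller or opposite changes. ATP5F1A, the alpha subunit that alternates with beta around the head, was named after its value was seen and rose by 0.85 ± 0.0684 (SE, limma adjusted p = 6.69e-05). ATP5F1C, the gamma shaft, was at -0.84 (0.24 under spike-in scaling) and ATP5F1E, the epsilon subunit, at -1.28 ± 0.190 (SE, limma adjusted p = 0.00107). The miR-NC RIP arrays of ATP5F1E read 5.86 and 6.30, wider apart than its other groups, and its change was not called under spike-in scaling. ATP5F1C and ATP5F1D, the delta subunit at 0.50 ± 0.200 (SE, limma adjusted p = 0.0613), were likewise named afterwards. The miR-NC RIP arrays of ATP5F1D read -0.024 and 0.45, and its change ran from 0.26 to 0.73 with each array left out. Under spike-in scaling the change of ATP5F1D was 1.58 and called higher (limma, adjusted p = 3.70e-08).

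The subunit c ring turns as protons pass, and ATP5MC1, ATP5MC2 and ATP5MC3 encode the same mature protein behind different import sequences. ATP5MC1 read 1.94 and 1.97 in the input and 0.36 and 0.89 in the RIP of miR-NC cells, and 1.66 and 1.73 in the input and 0.37 and 0.38 in the RIP of miR-634 cells. Its RIP arrays lay below the input in both kinds of cells, the RIP groups overlapped, and the change was 0.018 ± 0.219 (SE, limma adjusted p = 0.947). Without the miR-NC RIP array of replicate 1 the change of ATP5MC1 was -0.25 and without that of replicate 2 it was 0.28, each past the threshold in limma (adjusted p = 0.0272 and 0.0169), so that its direction rests on which of the pair is used; without the miR-634 input array of replicate 1 it was -0.017. ATP5MC2 read 3.71 and 3.70 in the input and 5.34 and 5.39 in the RIP of miR-NC cells, and 3.49 and 3.59 in the input and 5.70 and 5.74 in the RIP of miR-634 cells. Its RIP arrays lay above the input in both kinds of cells, with a change of 0.52 ± 0.0726 (SE, limma adjusted p = 7.98e-04). ATP5MC3 read 4.79 and 4.72 in the input and 5.34 and 5.33 in the RIP of miR-NC cells, and 4.54 and 4.56 in the input and 7.55 and 7.53 in the RIP of miR-634 cells. Both of its miR-634 RIP arrays lay above all others, and the change was 2.41 ± 0.0626 (SE, limma adjusted p = 9.34e-07), a 5.31-fold rise (3.49 in log2 under spike-in scaling). In miR-NC cells the RIP/input of ATP5MC1, ATP5MC2 and ATP5MC3 was -1.33, 1.66 and 0.58, all below 0 under spike-in scaling, and differences between these genes were not tested. Input changes were -0.26, -0.17 and -0.20, and that of ATP5MC3 was called lower. Under spike-in scaling the input change of ATP5MC3 was -0.42 and not called (limma, adjusted p = 0.174).

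**Figure D3:**
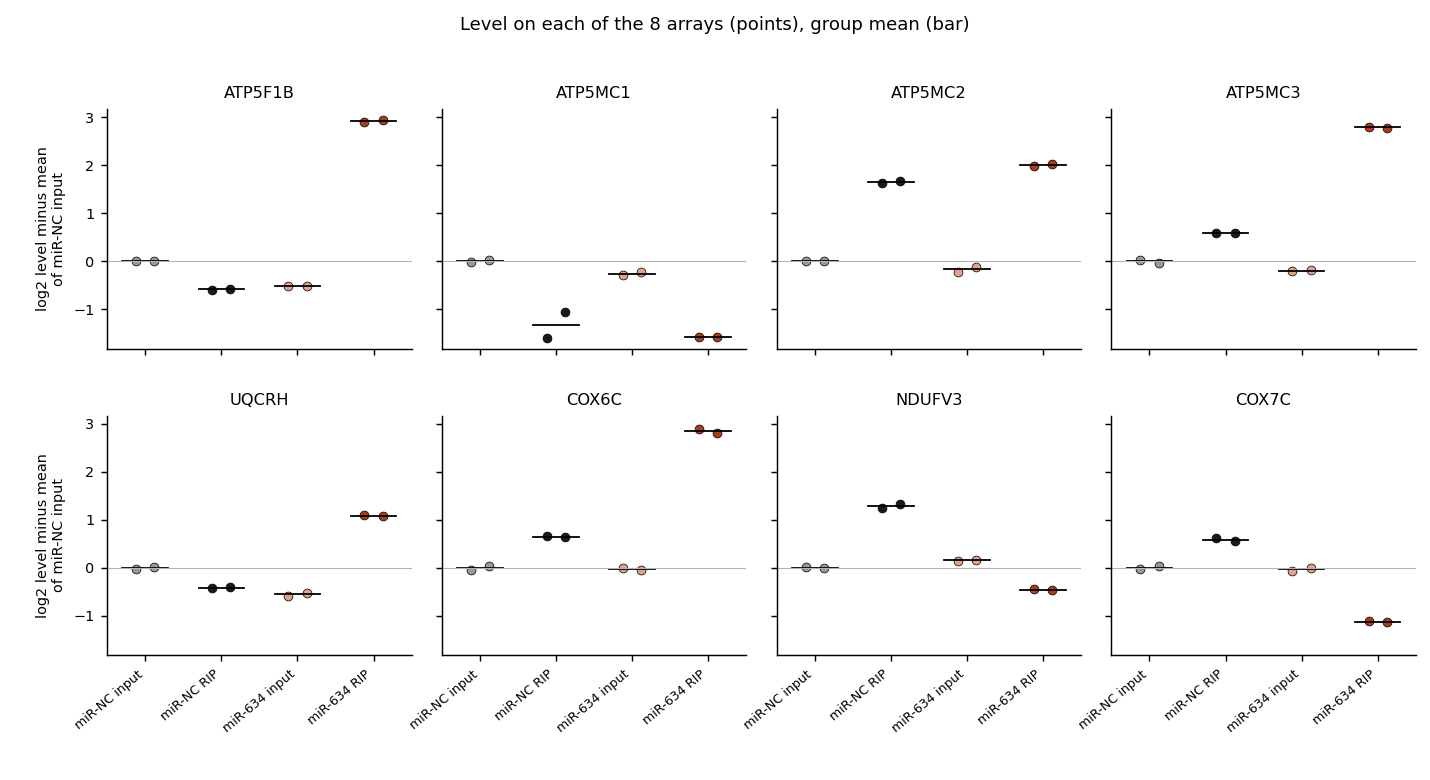
Level on each of the 8 arrays (points; bars are means of 2) for 8 subunits, as log2 minus the mean of the miR-NC input arrays of the same gene. The miR-634 RIP arrays are the highest for ATP5F1B, ATP5MC2, ATP5MC3, UQCRH and COX6C and the lowest for NDUFV3 and COX7C with arrays scaled on the 75th percentile, where spike-in scaling places each RIP group lower against its input.

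Of the membrane subunits around the ring, 2 of 5 were called higher (40%, against 28.1% of all genes) and 3 lower (60%, against 43.3%). Under spike-in scaling all 5 were above 0, where the median of all genes was 0.87. ATP5MG, the g subunit, was named after its value was seen and rose by 2.60 ± 0.0599 (SE, limma adjusted p = 6.88e-07), and its near copy ATP5MGL read 2.14 and 2.17 in the input and 2.18 and 2.19 in the RIP of miR-NC cells, and 1.73 and 1.80 in the input and 4.65 and 4.67 in the RIP of miR-634 cells. The change of ATP5MGL was 2.86 ± 0.0639 (SE, limma adjusted p = 6.60e-07) and its input change -0.39, close to the -0.31 of ATP5MG; the probe sequences were not used here, and whether the ATP5MGL probe also binds ATP5MG was not tested. ATP5MF, the f subunit, read 3.13 and 3.20 in the input and 3.37 and 3.45 in the RIP of miR-NC cells, and 2.88 and 3.02 in the input and 4.32 and 4.30 in the RIP of miR-634 cells. Its miR-634 RIP arrays lay above all others, and the change was 1.12 ± 0.0900 (SE, limma adjusted p = 6.76e-05). ATP5F1B and ATP5MF are on the study's list of candidate targets, which was drawn in part from these arrays and is not independent of them. ATP5MJ, the top subunit of miR-NC cells, changed by -1.02 ± 0.121 (SE, limma adjusted p = 3.80e-04) while RIP/input was above 0 in both kinds of cells. Under spike-in scaling RIP/input was below 0 with miR-NC and the change was 0.064. In the peripheral stalk, which holds the head still, ATP5PF was at -0.81 ± 0.0725 (SE, limma adjusted p = 1.06e-04) and ATP5PB at -0.34 ± 0.444 (SE, limma adjusted p = 0.515), both above 0 under spike-in scaling. ATP5PB turned from below to above 0 (0.17) without the miR-NC RIP array of replicate 1, and without that of replicate 2 it was -0.85 and called lower by limma (adjusted p = 0.0122).

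In the input most subunits were slightly lower after miR-634. The level after miR-634 was below that after miR-NC for 75 of 81 subunits (92.6%, against 50.9% of all genes), and the median was -0.14, against -0.0041 over all genes. The medians were -0.13, -0.12, -0.15, -0.14 and -0.16 in complexes I to V. Limma called 18 lower (22.2%, against 12.1% of all genes) and 0 higher (11.7% of all genes), where an unadjusted p under 0.05 gave 41 lower and 1 higher and the methods' t-test without adjustment 35 and 1. By the t-test with Benjamini-Hochberg adjustment these counts were 3 and 0, and with an intensity trend in limma 36 and 1. The shares called lower were 43.2% of the subunits and 17.4% of all genes by the unadjusted t-test. They were 3.70% and 2.26% with adjustment, and 44.4% and 13.8% with the intensity trend. The deepest falls, UQCRH, ATP5F1B and ATP5MGL, were of -0.55, -0.52 and -0.39. The count of 18 rested on every input array: it was 5 and 5 without either miR-NC input array and 5 and 7 without either miR-634 input array. In these 4 fits the share called lower was near that of all genes. The median of the subunits minus that of all genes changed little, from -0.11 to -0.15, against -0.13 with all arrays. The median over the subunits stayed below 0 in each of these fits, between -0.12 and -0.15, and -0.082 with the percentile over all probes and -0.36 with spike-in scaling. With the percentile over all probes the calls over all genes were 1070 higher and 659 lower, in place of 1285 and 1323. With spike-in scaling they were 34 and 856. Both settings gave 4 subunits lower (4.94%), against 6.01% of all genes in the former and 7.81% in the latter. The share of the subunits called lower thus fell below that of all genes. The median of the subunits minus that of all genes was -0.13 in both settings, which a shift of whole arrays leaves unchanged. Less of a message in every cell and fewer cells with it cannot be told apart in these bulk samples.

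**Figure D4:**
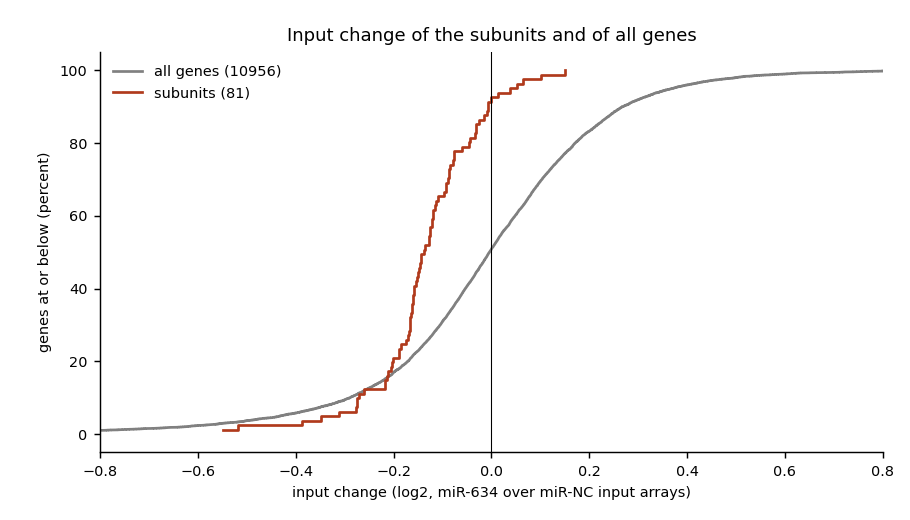
Cumulative share (percent) of the 81 subunits (red) and of all 10956 genes (grey) at or below a given input change (log2, mean of 2 miR-634 minus mean of 2 miR-NC input arrays). The red curve lies left of the grey one over most of its range and crosses it among the deepest falls, with medians of -0.14 and -0.0041; the median of the subunits stays below 0 in all scalings tried.

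The change in the RIP and the change in the input come from separate arrays and can be set against each other. The RIP level itself was called higher for 24 subunits (29.6%, against 30.9% of all genes) and lower for 48 (59.3%, against 46.5% of all genes), with a median of -0.37 against -0.18. Spike-in scaling gave 44 higher and 4 lower, with 7405 and 379 over all genes, where the percentile over all probes gave 4047 higher and 3714 lower in place of 3384 and 5097. Of the 24 subunits with a higher RIP level, 11 (45.8%) were called lower in the input, with a median input change of -0.19. Of the 48 with a lower RIP level 7 (14.6%) were, with a median of -0.13. These input calls depend on the scaling and on each input array, as given above. Over all genes the corresponding shares were 23.9% and 7.36%, and the medians -0.065 and 0.011. Across the 81 subunits RIP change and input change correlated with a Pearson's r of -0.48 and a Spearman's rho of -0.31, and across all genes with -0.22 and -0.13. These are descriptions across genes of the same arrays, and genes are not independent replicates.

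**Figure D5:**
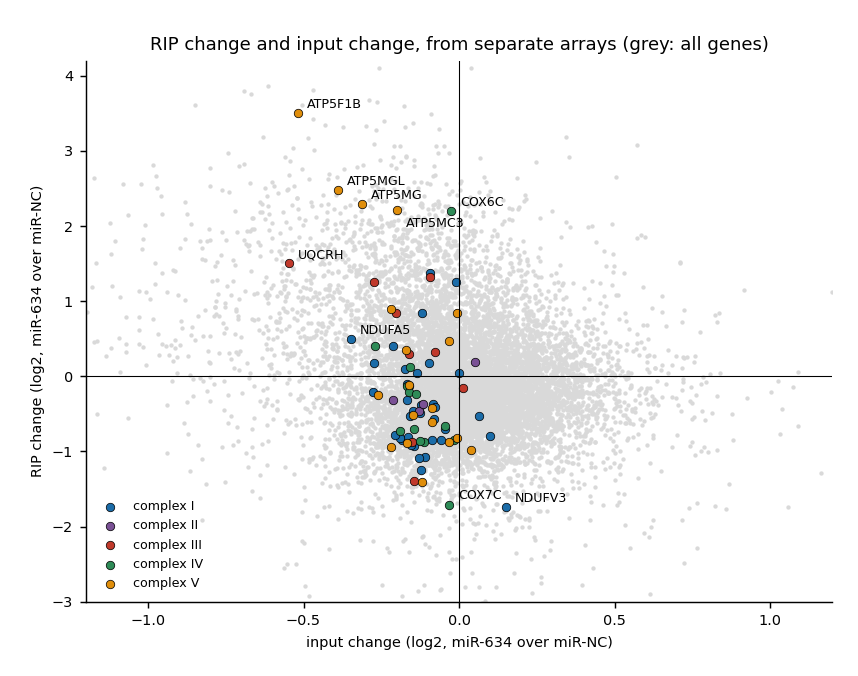
RIP change against input change (both log2, miR-634 over miR-NC, means of 2 arrays) of the subunits, coloured by complex, over all genes (grey; 26 genes lie outside the axes). ATP5F1B, ATP5MGL, ATP5MG and UQCRH sit at the upper left, with a higher RIP and a lower input level, and NDUFV3 and COX7C at the bottom; the vertical position of all points moves up under spike-in scaling.

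Where several probes of a subunit passed, they mostly gave like values. This was so for 18 subunits, whose probes spanned a median of 0.123 in the change of enrichment (log2), and 2 of them, SDHD and, named after its values were seen, NDUFC2, had probes on both sides of 0. The probes of UQCRH gave 2.05 and 2.67 and those of ATP5MF 0.84 and 1.12, so that both rises were seen with a second probe, whereas ATP5F1B, ATP5MC3, ATP5MG and COX6C rested on 1 probe. Subunit genes have many processed pseudogenes, 188 of which fit the name rule in the RefSeq table. Of the measured subunits, 46 had at least 1 that bears their name, including COX6C with 18, ATP5MG with 8 and ATP5F1B with 1. The change of enrichment was called higher in 15 of these 46 and in 10 of the 35 others, and lower in 21 and 19. The shares were 32.6% and 28.6% higher (28.1% of all genes) and 45.7% and 54.3% lower (43.3% of all genes). Whether pseudogene transcripts add to any probe was not tested.

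Genes that fit the name rule by letters only were not counted as members. Of these 5 were measured: DMAC2 (formerly ATP5SL), a factor for complex I assembly, had a change of enrichment of 2.34 ± 0.0613 (SE, limma adjusted p = 9.44e-07) with an input change of -0.68. EMC8 (formerly COX4NB), of the membrane protein complex of the endoplasmic reticulum, had 1.79. DMAC2L, the antisense RNA NDUFB2-AS1 and NDUFAF2 were not called. Their values were -0.16, 0.17 and -0.21. NDUFAF2 is an assembly factor of complex I and is counted again among the other genes of the pathway.

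Of the other genes of the pathway, 49 of 68 were measured, 47 of them assembly factors; none of the 13 mitochondrially encoded subunits was. The change of enrichment was called higher for 13 (26.5%) and lower for 23 (46.9%), shares near those of all genes given above, with a median of -0.25. Under spike-in scaling limma called 35 higher, as did an unadjusted p under 0.05, and 0 lower. CYCS, cytochrome c, which carries electrons between complexes III and IV, read 2.16 and 2.19 in the input and 1.33 and 1.28 in the RIP of miR-NC cells, and 2.17 and 2.10 in the input and 0.57 and 0.52 in the RIP of miR-634 cells. Its miR-634 RIP arrays lay below all others, and the change was -0.71 ± 0.0691 (SE, limma adjusted p = 1.51e-04). NDUFAB1, the acyl carrier protein of complex I, was at -0.71; both were above 0 under spike-in scaling. The largest rises were those of TIMMDC1, an assembly factor of the complex I membrane arm, and TTC19, a factor of complex III. TIMMDC1 read 2.65 and 3.10 in the input and 2.43 and 2.30 in the RIP of miR-NC cells, and 2.42 and 2.38 in the input and 4.65 and 4.63 in the RIP of miR-634 cells. Both miR-634 RIP arrays lay above all others and the change was 2.74 ± 0.196 (SE, limma adjusted p = 4.01e-05). TTC19 rose by 2.60 ± 0.0911 (SE, limma adjusted p = 2.26e-06), and its input fell by 0.90 on the log2 scale (limma, adjusted p = 6.42e-04). The largest falls were those of COX16, a factor for complex IV, at -1.38 ± 0.0657 (SE, limma adjusted p = 6.98e-06) and SDHAF3, a factor for complex II, at -1.07; under spike-in scaling neither was called, and SDHAF3 was above 0. The miR-634 RIP arrays of SDHAF3 read -4.42 and -5.10, and the methods' t-test did not call it (unadjusted p = 0.0874). In the input 13 of 49 were called lower (26.5%, against 12.1% of all genes) and 1 higher (2.04%, against 11.7%), with a median of -0.071. With the percentile over all probes only 2 were called lower (4.08%, against 6.01% of all genes) and with spike-in scaling 3 (6.12%, against 7.81%). The count also fell whenever 1 input array was left out.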

How the data were processed

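The authors scanned the arrays and extracted spots with Agilent Feature Extraction (version 9.1 in the submitters' processing notes, 12.0.1.1 per the file headers) and deposited per-spot intensity values: the processed signal, the median signal and its local background. The authors' processed values, deposited as log2 values per probe, equalled the 75th-percentile-shifted signal centred over the arrays (Pearson's r of at least 0.99994 on each array, across probes; the centring reference is not stated); their column medians ran from -0.44 to 0.87. Here controls and spots marked as outliers were dropped, spots of a probe averaged, and log2 of the processed signal shifted by the array's 75th percentile over the 16805 of 58201 probes well above background on all 8 arrays. RefSeq accessions were given for 33080 probes, and 31104 matched a gene of GRCh38.p14. Limma 3.58.1 (R 4.3.3) fitted the 4 group means with eBayes, with Benjamini-Hochberg adjustment over 10956 genes; the fit was tested on simulated data. Python 3.11.15 and matplotlib 3.10.9 were used for counts and figures.

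Members and lists were chosen with earlier results of these data known. Named genes were, by a rule, the study's candidate targets among the members, the extremes of each complex in the change of enrichment, the largest called input changes, the extremes of RIP/input, complex II, the subunit c genes, the complex I core, CYC1, CYCS, NDUFAB1, the largest called changes of the other pathway genes and 4 known targets; others are said to be chosen after their values were seen. Alternatives covered scaling, quantile normalization, normexp background correction, the probe filter, the probe summary, the test, an intensity trend, replicate as a block and each array left out. For arrays, their number limits the precision.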

Additional observations from a re-analysis of the deposited data

Results flagged for a closer look

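Among the members named by rule, 8 lay on opposite sides of the input in miR-NC and miR-634 cells, each side called. The difference is the change of enrichment (limma, adjusted p from 5.34e-07 to 5.18e-04). Since the genes were picked by calls of opposite sign, a difference is built into the choice. These p-values are therefore no separate test of the crossing. Below the input in miR-NC cells and above it in miR-634 cells were NDUFS1, NDUFV1, UQCRH, COX5B and ATP5F1B, with differences of 0.96, 1.26, 2.05, 0.68 and 4.02 (log2). Above the input in miR-NC cells and below it in miR-634 cells were NDUFV3, UQCR10 and COX7C, with differences of -1.90, -1.25 and -1.68. Under spike-in scaling each of the 81 subunits was below the input in miR-NC cells. With miR-634, RIP/input was then -0.89, -0.44, 0.19, -0.96 and 1.99 for the first 5 genes, so that NDUFS1, NDUFV1 and COX5B were below the input in both kinds of cells, UQCRH was not called (limma, adjusted p = 0.353) and of these ATP5F1B alone kept the crossing. The cause was not tested.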

How the results depend on the processing

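Scaling on the spike-in probes had the widest effect. By limma it gave 0 subunits higher (0 at an unadjusted p under 0.05) and 79 lower in RIP/input of miR-NC cells, 8 higher in miR-634 cells, 50 higher and 2 lower in the change of enrichment, 35 and 0 of them over 2-fold, and 44 higher and 4 lower in the RIP. Of the 81 subunits, 81 were below 0 in RIP/input of miR-NC cells, in place of 52, and 5 in the change of enrichment, in place of 47. Each subunit above 0 in RIP/input of miR-NC cells thus turned, among them the highest, ATP5MJ -0.025, NDUFB2 -0.092 and COX6B2 -0.44. Among the genes named by rule, directions turned in the change of enrichment for COX4I1 0.25, ATP5MJ 0.064, NDUFB11 0.32, ATP5PB 0.74, NDUFB2 0.51, COX6B2 0.47, UQCRQ 0.36, ATP5PF 0.27, SDHB 0.75, SDHC 0.82, SDHD 0.98, NDUFS3 0.49, NDUFS8 0.12, CYCS 0.37, NDUFAB1 0.38 and SDHAF3 0.017. SDHD was 0.017 with the percentile over all probes and with the authors' values alike, and ATP5MC1 was -0.022 with quantile normalization and -0.011 with normexp before it. With each array left out in turn, the change of enrichment ran from -0.85 to 0.17 for ATP5PB, from -0.25 to 0.28 for ATP5MC1 and from -0.21 to 0.0054 for SDHD; a group left with 1 array is assumed to vary like the others. The count of 18 subunits lower in the input became 4 with the percentile over all probes, with spike-in scaling and with the authors' values, 11 with quantile normalization, 10 with normexp, 11 with a filter on the input arrays, 5 without one, 36 (and 1 higher) with an intensity trend, 35 (and 1 higher) by the unadjusted t-test and 3 with adjustment, and 5 to 21 with each array left out. The causes were not tested. The limma counts of subunits called higher or lower in RIP/input, in the change of enrichment and in the RIP stayed within 1.5 times their value in the settings other than spike-in scaling. Subunits on opposite sides of the input, 9 from below to above and 6 the other way, were 7 and 0 with spike-in scaling, 8 and 4 with the percentile over all probes and 5 and 5 by the t-test with adjustment. The unadjusted t-test did not call the changes of COX7A2, NDUFS7 and SDHAF3 or RIP/input of ATP5PB in miR-NC cells, and with adjustment it also did not call the changes of ATP5F1E, NDUFB2 and SDHB or the input changes of UQCRH and ATP5MGL.

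Little pairing by replicate number was seen: the deviations of replicate 1 correlated between groups with r from -0.0377 to 0.0839 over 10956 genes. The highest values were those of input with RIP of the same cells, 0.0739 with miR-NC and 0.0839 with miR-634. Whether arrays of the same number share a lysate was not tested. With a replicate block the change of enrichment was called higher for 24 subunits and lower for 41, and the input lower for 13. Shifting each array so that the median gene lay at 0, an alternative chosen after seeing the data, gave 26 higher, 40 lower and 21 lower in the input. Signal over background limits the set to the 10956 genes well above background on all 8 arrays.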
